A study of Homo sapiens with 6 samples.

Results

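The 10 genes described here are known to be expressed from 1 parental copy: H19, IGF2, PEG10, MEST, PEG3, NDN, CDKN1C, DLK1, MEG3 and KCNQ1OT1. They were chosen by name, and all 10 had a row among the 57773 genes of the deposited table. HEK293, a line grown from human embryonic kidney cells, gave 6 libraries: 3 carry the genotype label of a TRDMT1 knockdown and 3 the label of a control. TRDMT1, also called DNMT2, methylates cytosines in certain tRNAs. The labels name no knockdown agent, clone or culture time. Nothing in them says that libraries of 1 group were grown separately, so a p-value here reflects only variation among these libraries, which may be technical.

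TRDMT1 itself did not follow the labels. Its count was 221, 225 and 245 across the knockdown-labelled libraries and 99, 93 and 80 in the control-labelled ones. After scaling to the library total times its edgeR scaling factor (CPM, in the usual unit) this was 5.74 ± 0.0209 against 3.76 ± 0.860 (SD, n = 3 libraries each). Plain CPM, where named, leaves that factor out. The log2 difference was 0.61 ± 0.21 (SE) with an adjusted p of 0.0705 in edgeR, and TRDMT1 was called higher in 6 of 17 alternative settings. The groups are therefore named by their labels throughout, and every direction below is that of the knockdown-labelled libraries relative to the control-labelled libraries. The table's short names are 293C1 to 293C3 for the libraries titled knockdown and 293TK1 to 293TK3 for those titled control, letters that can be read in the opposite sense, so all directions may be swapped. Library totals ran from 24776040 to 40088993 counts, and the 3 totals labelled control were the 3 lowest. Of 12 genes that mark HEK293 cells, 11 exceeded 1 RPKM (a count scaled by exonic length and library total) in every library, and the 4 lists of blood, liver, fibroblast and pluripotent cell markers held no gene above 1 RPKM in every library. The summed liver markers were at 0.259 to 0.349 RPKM across the knockdown-labelled libraries and at 0.0224 to 0.181 RPKM in the control-labelled ones, and the summed HEK293 markers were at 655 to 677 against 770 to 826 RPKM. Among the marker genes, only EPCAM and the fibroblast gene LUM were called. They fell by 0.97 ± 0.20 and 1.62 ± 0.44 on the log2 scale (edgeR adjusted p = 0.0168 and 0.0364). In CPM the groups did not overlap for 3 HEK293 markers higher (PAX2, LHX1 and CDH2) and 3 lower, beside 23.9% and 26.0% of all tested genes. In the fibroblast list COL1A1 was at 0.22 ± 0.58 and COL3A1 at -0.13 ± 0.23, and the untested DCN and PDGFRB had higher means at few counts. VIM was the largest part of the HEK293 sum, at 230 ± 2.71 against 337 ± 104 RPKM. The part of these markers in the results was not tested.

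Imprinted genes depend on a DNA methylation mark, set in the egg or the sperm, that differs between the parental copies. They lie in clusters in which a single control region often decides both a growth-promoting gene expressed from the paternal copy and a restraining gene or long noncoding RNA expressed from the maternal copy. H19 and IGF2 share enhancers and are separated by a control region that binds CTCF. KCNQ1OT1 is an antisense RNA, transcribed from the paternal copy, whose cluster includes the maternally expressed cell cycle inhibitor CDKN1C. MEG3 and DLK1 are a maternal and paternal pair on chromosome 14, and PEG10, MEST, PEG3 and NDN are expressed from the paternal copy. Total RNA does not tell the parental copies apart, so every level below is the sum over both, and fewer cells expressing a gene cannot be told apart from less RNA per cell.

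The start regions of 3 members are shown because the results contrast them: H19, higher in the knockdown-labelled libraries; MEG3, lower there; and NDN, with no read in any library. Each is 250 bases before to 50 bases after a RefSeq start in GRCh38.p14, read 5′ to 3′ along the gene's strand, with CpG dinucleotides, the sites at which DNA methylation is placed, in capitals. The H19 region is chr11:2001217-2001516 on the minus strand, at the only H19 start that was matched. That of MEG3 is chr14:100825858-100826157 on the plus strand, the first of 3 listed starts. That of NDN is chr15:23687256-23687555 on the minus strand. Which start these cells use was not measured, so a window may not be the promoter in use.
H19: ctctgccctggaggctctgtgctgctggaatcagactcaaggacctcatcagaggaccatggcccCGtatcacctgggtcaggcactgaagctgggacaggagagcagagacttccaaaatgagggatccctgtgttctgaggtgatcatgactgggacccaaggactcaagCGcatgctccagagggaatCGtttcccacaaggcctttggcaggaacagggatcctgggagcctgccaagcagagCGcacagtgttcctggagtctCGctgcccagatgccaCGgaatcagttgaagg
MEG3: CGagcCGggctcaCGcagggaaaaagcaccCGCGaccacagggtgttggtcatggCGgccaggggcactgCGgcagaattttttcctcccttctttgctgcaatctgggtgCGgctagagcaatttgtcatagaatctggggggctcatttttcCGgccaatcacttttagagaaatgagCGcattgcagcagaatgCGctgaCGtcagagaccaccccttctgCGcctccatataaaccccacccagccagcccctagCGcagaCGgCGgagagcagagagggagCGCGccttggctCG
NDN: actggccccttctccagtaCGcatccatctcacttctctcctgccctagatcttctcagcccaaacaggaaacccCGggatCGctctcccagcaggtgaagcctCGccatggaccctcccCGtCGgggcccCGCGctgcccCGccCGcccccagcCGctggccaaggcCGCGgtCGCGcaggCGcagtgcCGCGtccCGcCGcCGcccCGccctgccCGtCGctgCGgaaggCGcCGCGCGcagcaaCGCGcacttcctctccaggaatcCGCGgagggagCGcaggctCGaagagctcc

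These windows held 6 CpG for H19, 19 for MEG3 and 35 for NDN, against a median of 14 over 35116 RefSeq start regions of the same 300 bases. In the order of all these regions, 33.7% held fewer CpG than H19, 57.1% fewer than MEG3 and 85.9% fewer than NDN. Short letter strings were searched on both strands. TGCCGC, the letters that the imprint protector ZFP57 is known to bind, occurred 1 time in the MEG3 window and 1 time in the NDN window, and occurs in 16.7% of all windows. GGGCGG, the core of a GC box, occurred 4 times in the NDN window and occurs in 45.0% of all windows. TATAAA occurred 1 time in the MEG3 window, and occurs in 11.5% of all windows. The H19 window held none of these letter strings. A match is a description of the letters and not a bound site, and DNA methylation was not measured. RefSeq start regions were matched for 4 of the 10 members: H19, MEST, NDN and MEG3.

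H19, MEG3 and MEST carry a microRNA in their transcript, and the mature forms of the H19 and MEG3 ones are shown with the seed, bases 2 to 8, in capitals. They are from RefSeq on GRCh38.p14, miR-675 from chromosome 11 on the minus strand at chr11:1996800-1996822 for the 5p arm and chr11:1996768-1996787 for the 3p arm, and miR-770-5p from chr14:100852409-100852431 on the plus strand.
miR-675-5p: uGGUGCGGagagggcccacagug
miR-675-3p: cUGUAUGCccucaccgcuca
miR-770-5p: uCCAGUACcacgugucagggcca
No seed was shared between these 3. In this total RNA table the row of MIR770, and that of MIR335 within MEST, was at 0 counts in every library. A row for MIR675 was not analysed here. The host transcripts are therefore what the values below measure.

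Of the 10 members, 7 passed the filter on low counts and were tested with edgeR over 17805 genes. At an adjusted p under 0.05, 2 were higher in the knockdown-labelled libraries, H19 and IGF2, where 9.29% of all tested genes were called higher. Lower was 1 member, MEG3, where 14.7% of all tested genes were called lower. Among the 7 tested, the groups did not overlap in CPM for the same 3 genes. Of these 2 were higher, where 23.9% of all tested genes did not overlap in that direction, and 1 lower, where 26.0% did not. The untested PEG3 and DLK1 did not overlap either, both higher, at 5 counts or fewer in every library. The median log2 difference of the 7 was 0.22, and that of all tested genes was -0.04. H19 and MEG3 passed the filter only with the libraries of the group in which they were high, so these counts describe the members and are no support for a shared direction. With no filter H19 was at 2.19 ± 0.47 (edgeR adjusted p = 0.00643) and MEG3 at -3.33 ± 0.42 (edgeR adjusted p = 0.000140). PEG10, MEST, CDKN1C and KCNQ1OT1 were not called, and PEG3, DLK1 and NDN did not pass the filter. With no filter 9 members were tested, all but NDN, and PEG3 and DLK1 were not called.

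**Figure D1:**
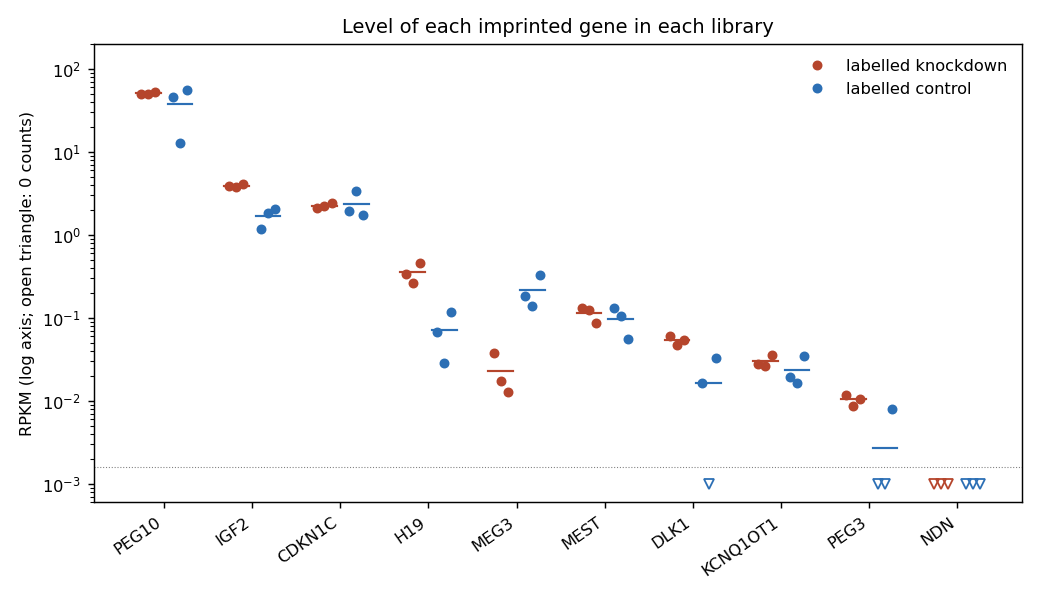
Level of each of the 10 genes in each of the 6 libraries, in RPKM on a log axis. Points are libraries, bars are group means and open triangles below the dotted line are libraries with 0 counts. PEG10 lay above all other members, near 50.9 RPKM in the knockdown-labelled libraries, and NDN was at 0 in every library.

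Levels between genes were compared per exonic length. PEG10, a protein derived from a retrotransposon gag and pol gene, was the most abundant at 50.9 ± 2.06 RPKM across the knockdown-labelled libraries and 38.2 ± 22.6 RPKM in the control-labelled ones (SD, n = 3 each). In the knockdown-labelled libraries the level in RPKM then fell in the order IGF2 at 3.92, CDKN1C at 2.25, H19 at 0.355, MEST at 0.113, DLK1 at 0.0540, KCNQ1OT1 at 0.0303, MEG3 at 0.0227, PEG3 at 0.0105 and NDN at 0. Only the neighbours KCNQ1OT1 and MEG3 had overlapping ranges in that order. In the control-labelled libraries the order of the mean RPKM was PEG10, CDKN1C at 2.36, IGF2 at 1.71, MEG3 at 0.218, MEST at 0.0973, H19 at 0.0718, KCNQ1OT1 at 0.0234, DLK1 at 0.0164, PEG3 at 0.00268 and NDN at 0. There the ranges overlapped between CDKN1C and IGF2, between MEST and H19, and between every later pair of neighbours in the order, so those places are not separated by the libraries. MEG3 thus stood above H19 in the control-labelled order and below it in the other.

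H19 (ENSG00000130600, chromosome 11) is a maternally expressed long noncoding RNA, abundant in fetal tissue and a precursor of miR-675. Its count was 35, 27 and 52 across the knockdown-labelled libraries and 5, 2 and 9 in the control-labelled libraries. In CPM these were 0.907, 0.692 and 1.22 against 0.190, 0.0995 and 0.327. The groups did not overlap, and the lowest knockdown-labelled library stood above the highest labelled control. H19 rose to a mean of 0.938 ± 0.264 from 0.205 ± 0.115 CPM (SD, n = 3 each), 4.57-fold, with a log2 difference of 2.12 ± 0.44 and an edgeR adjusted p of 0.0164. The summed counts, 114 against 16, give a ratio of 4.91 in plain CPM with an exact 95% interval of 2.90 to 8.88, which covers counting error only. The call was lost when the first or the third knockdown-labelled library or the first control-labelled one was left out, at edgeR adjusted p of 0.0673, 0.0773 and 0.0696, while the log2 difference stayed between 1.85 and 2.62 over all 6 omissions.

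IGF2 (ENSG00000167244, chromosome 11), the paternally expressed insulin-like growth factor and main fetal growth signal, was the more abundant of the pair. It reached 25.9, 24.7 and 26.7 CPM across the knockdown-labelled libraries and 8.35, 16.0 and 14.1 CPM in the control-labelled ones. The 3 knockdown-labelled libraries lay close together and above every control value, and the first control-labelled library was the lowest. IGF2 rose 2.01-fold, from 12.8 ± 3.97 to 25.7 ± 1.0 CPM (SD, n = 3 each), a log2 difference of 1.01 ± 0.24 with an edgeR adjusted p of 0.0243. This call ended once trends with the GC content and other base shares of transcripts and with their length were removed, at 0.31 ± 0.34 and an edgeR adjusted p of 0.537, and when any single knockdown-labelled library was left out, at 0.0848 to 0.0978. IGF2 has 60.4% GC in its longest transcript, against a median of 48.8% over tested genes. H19, at 63.4% GC, was at 2.02 ± 0.48 with the same trends removed (edgeR adjusted p = 0.0290).

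Other genes of the same chromosome give the setting of this pair. The median log2 difference of 787 tested coding genes of chromosome 11 was 0.31. Of the 40 tested coding genes nearest to H19, 12 were called higher and 1 lower (median 0.36). Of those nearest to IGF2, 10 were called higher and 1 lower (median 0.32). Over all tested genes 9.29% were called higher and 14.7% lower. H19 and IGF2 were both above these medians, a position that was not tested. In GENCODE 29, a separate entry also named IGF2 shares 73.7% of the IGF2 exonic bases on the same strand, and its counts were not analysed here. On that strand the readthrough gene INS-IGF2 shares 20.9% and AC132217.1 shares 5.34%, each at 0 counts. The antisense IGF2-AS overlaps 4.77%. IGF2-AS was at 1.08 ± 0.51 on the log2 scale (edgeR adjusted p = 0.160), and was called higher without the second control-labelled library, at 1.88 (edgeR adjusted p = 0.00488). The sources used here give no strand setting for the counting, so reads in the bases that IGF2 and IGF2-AS share cannot be told apart.

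In the second imprinted domain of 11p15, KCNQ1OT1 and CDKN1C were not called. KCNQ1OT1 (ENSG00000269821), the long antisense RNA that starts within KCNQ1 and silences its neighbours in cis, was at 2.44, 2.31 and 3.11 CPM across the knockdown-labelled libraries and 1.78, 1.84 and 3.09 CPM in the control-labelled ones. The groups overlapped, with the third library high in each. The log2 difference was 0.22 ± 0.28 with an edgeR adjusted p of 0.589. CDKN1C (ENSG00000129757), the cyclin-dependent kinase inhibitor p57, was at 5.18, 5.43 and 5.82 CPM against 5.08, 10.8 and 4.36 CPM. The groups overlapped, and the second control-labelled library stood apart from all others. The log2 difference of CDKN1C was -0.29 ± 0.34 (edgeR adjusted p = 0.561), and 0.22 without that library. KCNQ1OT1 shares 0.132% of its exonic bases with KCNQ1 on the opposite strand.

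Around them, 3 neighbours of the cluster rose. KCNQ1, a potassium channel subunit, rose from 4.96 ± 1.30 to 8.41 ± 0.413 CPM (log2 0.77 ± 0.21, edgeR adjusted p = 0.0396). SLC22A18, a membrane transporter, rose from 3.87 ± 0.586 to 6.72 ± 0.431 CPM (log2 0.80 ± 0.18, edgeR adjusted p = 0.0203). OSBPL5, an oxysterol-binding-protein-like lipid carrier at the edge of the domain, rose from 15.6 ± 2.31 to 31.6 ± 1.95 CPM (log2 1.01 ± 0.15, edgeR adjusted p = 0.00507). The groups did not overlap for any of the 3. PHLDA2, which limits placental growth, was at -0.13 ± 0.17 and the histone chaperone gene NAP1L4 at -0.15 ± 0.19 (edgeR adjusted p = 0.581 and 0.603). Of 14 cluster neighbours with a row, 8 were tested, 3 were called higher and 0 lower (median 0.56), beside 9.29% and 14.7% of all tested genes. The calls of KCNQ1 and SLC22A18 were lost with the composition and length trends removed, at 0.37 and 0.48 (edgeR adjusted p = 0.272 and 0.116), whereas OSBPL5 was then at 0.55 (0.0138). Leaving out any 1 knockdown-labelled library, or the first control-labelled one, also ended the calls of KCNQ1 and SLC22A18, and for KCNQ1 so did leaving out the third control-labelled one, at edgeR adjusted p of 0.056 to 0.146.

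**Figure D2:**
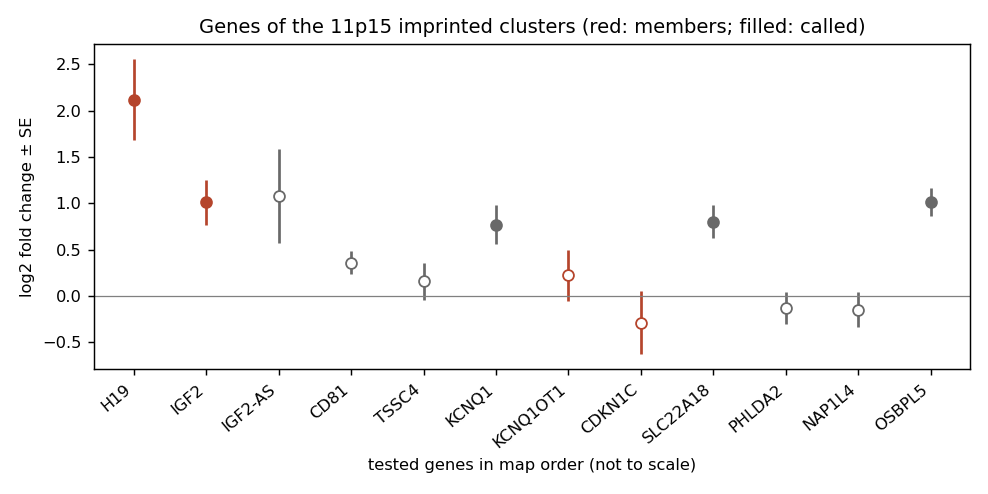
Log2 difference (labelled knockdown minus labelled control) with its standard error for the 12 tested genes of the 11p15 imprinted clusters in map order, not to scale. Members are red and filled points passed an adjusted p of 0.05: H19, IGF2, KCNQ1, SLC22A18 and OSBPL5 were called higher, and KCNQ1OT1 and CDKN1C lay at 0.22 and -0.29.

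MEG3 (ENSG00000214548, chromosome 14), a maternally expressed long noncoding RNA known as a growth restrainer, was the only member called lower. Its count was 22, 10 and 8 across the knockdown-labelled libraries and 77, 54 and 140 in the control-labelled ones. In CPM this was 0.570, 0.256 and 0.187 against 2.92, 2.69 and 5.09. The groups were far apart, and the highest knockdown-labelled library lay below the lowest labelled control. MEG3 fell from 3.57 ± 1.32 to 0.338 ± 0.204 CPM (SD, n = 3 each), 10.6-fold lower, with a log2 difference of -3.40 ± 0.47 and an edgeR adjusted p of 0.00412. It was called lower in all 17 alternative settings that tested it, from -3.99 to -0.25 on the log2 scale, the last of these on log2(RPKM + 1), where a pseudocount above its level shrinks the difference.

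DLK1 (ENSG00000185559), the paternally expressed partner and a Notch-like membrane protein that holds back differentiation, did not pass the filter. It had 5, 4 and 5 counts across the knockdown-labelled libraries and 1, 0 and 2 in the control-labelled ones. The ratio of the summed counts, 14 against 3, was 3.22 in plain CPM with an exact 95% interval of 0.897 to 17.4 that covers counting error only and includes equal levels. RTL1, a retrotransposon-derived gene of the same cluster, had no count across the knockdown-labelled libraries. In the control-labelled ones it had 1, 0 and 1 counts, a mean of 0.0248 CPM. BEGAIN was the single tested neighbour of 10 with a row, at -0.75 ± 0.29 (edgeR adjusted p = 0.107), and was called lower without the second control-labelled library, at -1.03 (edgeR adjusted p = 4.66e-05). Over 468 coding genes of chromosome 14 the median log2 difference was -0.50. Of the 40 nearest to MEG3, 0 were called higher and 12 lower (median -0.29), beside 9.29% and 14.7% of all tested genes. The difference of MEG3 was further from 0 than these medians, which was not tested.

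Among the remaining paternally expressed members, PEG10 (ENSG00000242265, chromosome 7) was at 312, 310 and 331 CPM across the knockdown-labelled libraries and 305, 105 and 362 CPM in the control-labelled ones. The second control-labelled library was the low one, and the other 5 lay close together. Its log2 difference was 0.30 ± 0.41 (edgeR adjusted p = 0.610), and -0.07 without that library (edgeR adjusted p = 0.562), so the sign of this uncalled value rests on 1 library. SGCE, the sarcoglycan gene that shares the promoter region of PEG10 on the opposite strand, was at -0.47 ± 0.25 (edgeR adjusted p = 0.207) and at 0.80 with composition and length trends removed. The exons of the pair overlap over 3.27% of PEG10. That control library also had the lowest scaling factor in edgeR, 0.8118 against 0.9966 to 1.067 in the other 5.

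MEST (ENSG00000106484, chromosome 7), a hydrolase-like protein of mesoderm, was near the limit of the test. Its CPM was 0.570, 0.538 and 0.374 across the knockdown-labelled libraries and 0.607, 0.597 and 0.254 in the control-labelled ones. The groups overlapped fully, and the third library was the low one in each. The log2 difference was 0.04 ± 0.40 with an edgeR adjusted p of 0.953, and its sign turned in 5 of 17 alternative settings. COPG2, a coat protein gene that runs towards MEST from the other strand, was at -0.89 ± 0.37 (edgeR adjusted p = 0.124).

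In the PEG10 cluster, 2 other genes fell. PON2, an intracellular lactonase, was at 32.8, 33.6 and 31.1 CPM across the knockdown-labelled libraries and 84.4, 91.8 and 66.2 CPM in the control-labelled ones. It fell by 1.31 ± 0.15 on the log2 scale (edgeR adjusted p = 0.00211) and was called lower in all 18 alternative settings. PPP1R9A, an actin-binding regulator of protein phosphatase, fell by 0.79 ± 0.16 (edgeR adjusted p = 0.0142), a call that 8 of 17 settings gave and that ended with composition and length trends removed, at -0.36 (edgeR adjusted p = 0.0586), and without any 1 knockdown-labelled library or the first control-labelled one (edgeR adjusted p of 0.058 to 0.0803). Of 13 neighbours of PEG10 and MEST with a row, 9 were tested, 0 were called higher and 2 lower (median -0.79), beside 9.29% and 14.7% of all tested genes. The 40 coding genes nearest to PEG10 had a median of -0.23, with 7 called higher and 11 lower, and those nearest to MEST a median of 0.09, with 3 called higher and 0 lower.

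PEG3 and NDN were at the bottom of the range. PEG3 (ENSG00000198300, chromosome 19), a zinc finger protein tied to growth and maternal behaviour, had 4, 3 and 4 counts across the knockdown-labelled libraries and 0, 0 and 2 in the control-labelled ones. The ratio of 11 to 2 summed counts was 3.79 in plain CPM, with an exact 95% interval of 0.827 to 35.2 that includes equal levels. PEG3 shares 12.9% of its exonic bases with ZIM2 on the same strand, and ZIM2 was listed at 0 in every library. NDN (ENSG00000182636, chromosome 15), a growth-suppressing MAGE protein lost in Prader-Willi syndrome, had 0 counts in all 6 libraries. A floor of 3 counts sets its upper limit at 0.0748 to 0.121 plain CPM, or 0.0397 to 0.0642 RPKM, depending on the library.

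Several other paternally expressed genes of 15q11 were also at or near 0, but MKRN3 was not. MAGEL2 and NPAP1 were listed at 0, and SNRPN, which shares a transcript with SNURF, reached a mean of 0.00864 CPM across the knockdown-labelled libraries and 0 in the control-labelled ones. SNURF was also listed at 0 in every library. The sources used here do not state how reads in exons shared by SNRPN and SNURF were counted. The values of SNRPN and SNURF may therefore not be their levels. MKRN3, a zinc finger gene that restrains the onset of puberty, was at 0.389, 1.23 and 0.585 CPM against 1.29, 0.398 and 1.38 CPM. Its groups overlapped, with a log2 difference of -0.51 ± 0.56 (edgeR adjusted p = 0.535), and it is named outside the rule, after its values were seen. UBE3A, the ubiquitin ligase of the same cluster that is silenced on the paternal copy only in neurons, was expressed at 63.8 ± 0.205 and 68.0 ± 16.1 CPM, and its log2 difference was -0.09 ± 0.19 (edgeR adjusted p = 0.736). Without the second control-labelled library UBE3A was called lower, at -0.27. Of 10 rows from the cluster, 5 were at 0 in every library and 3 were tested, with 0 called.

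**Figure D3:**
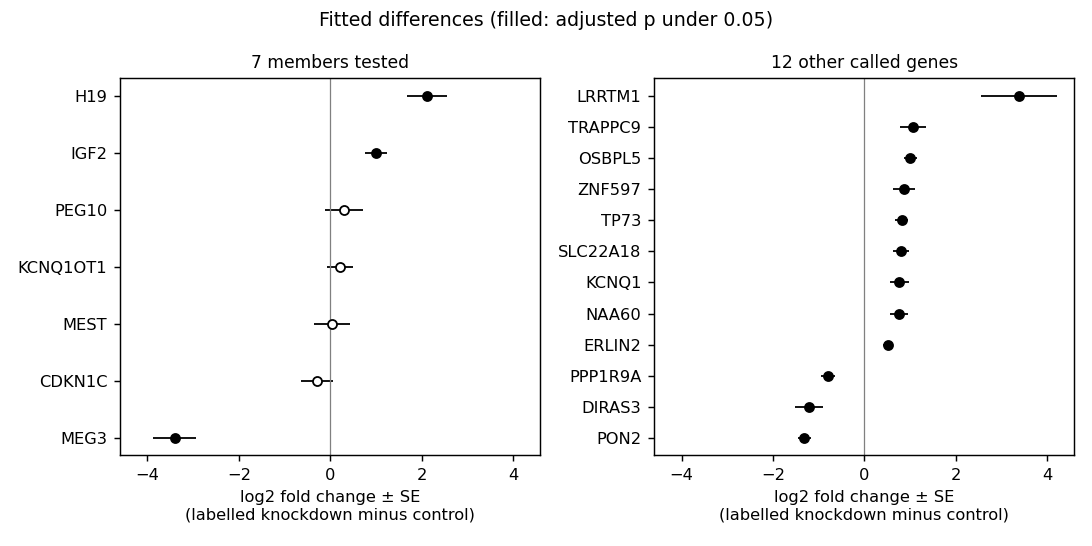
Log2 differences (labelled knockdown minus labelled control) with standard errors for the 7 tested members, left, and the 12 other imprinted or cluster genes that were called, right. Filled points passed an adjusted p of 0.05; MEG3 at -3.40 and LRRTM1 at 3.38 lie furthest from 0.

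The ratio of neighbours expressed from opposite parental copies was taken in each library as log2 of RPKM + 0.1. Where a gene lies below that pseudocount, the ratio depends on the pseudocount and on the scaling of the library. For MEG3 over DLK1 it was -0.21, -0.33 and -0.46 across the knockdown-labelled libraries and 1.29, 1.25 and 1.70 in the control-labelled ones. The groups did not overlap and differed by -1.75, with a two-sided exact permutation p of 0.1, the smallest that 3 against 3 libraries allow. DLK1 lay below the pseudocount in every library and MEG3 in the knockdown-labelled ones, and the size of the difference follows the pseudocount, at -0.30 with 1 RPKM and -4.30 with 0.01 RPKM.

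For H19 over IGF2 the log2 ratio was -3.19, -3.42 and -2.90 across the knockdown-labelled libraries and -2.95, -3.93 and -3.31 in the control-labelled ones. The groups overlapped and differed by 0.23 (exact permutation p = 0.6, two-sided). The value depended on the pseudocount, at -0.54 with 1 RPKM and 1.05 with 0.01 RPKM, because H19 in the control-labelled libraries lay near 0.1 RPKM. Without a pseudocount the ratio was 0.0870, 0.0695 and 0.113 against 0.0564, 0.0155 and 0.0577, and did not overlap. For KCNQ1OT1 over CDKN1C the log2 ratio was -4.17 ± 0.05 against -4.26 ± 0.59 (SD, n = 3 each), a difference of 0.09 with an exact permutation p of 1 (two-sided). The low value in the control-labelled libraries, -4.91, was that of the second library, in which CDKN1C was high.

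**Figure D4:**
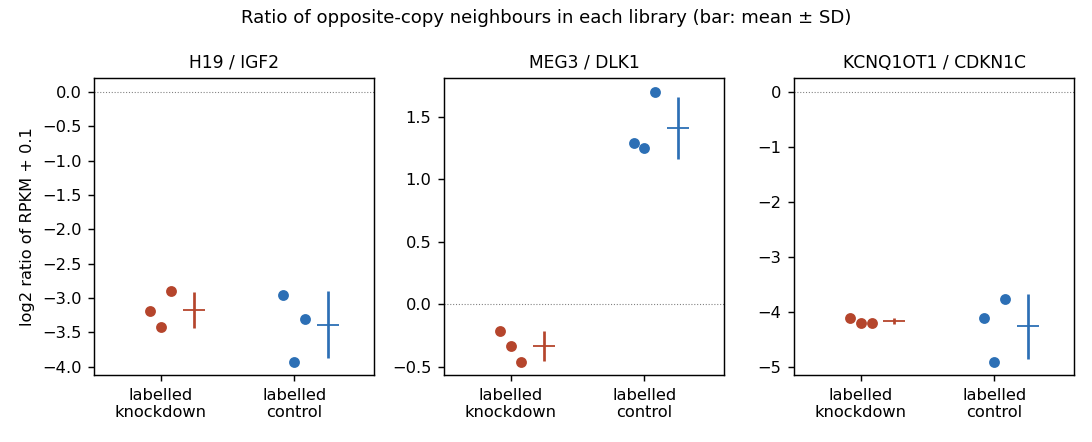
Log2 ratio of RPKM + 0.1 between neighbours expressed from opposite parental copies, with 1 point a library and the group mean ± SD beside it; each panel has its own axis. On this scale, of the 3 ratios only MEG3 over DLK1 separated the groups, at -0.33 ± 0.12 against 1.41 ± 0.25.

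Beyond the 10 members, 98 symbols of cluster neighbours and other imprinted genes were looked up, of which 92 rows were found and 55 tested. Of these, 9 were called higher, 3 lower and 43 were not called, and their median log2 difference was 0.15; of all tested genes 9.29% were called higher and 14.7% lower. Their CPM did not overlap between groups for 19 genes higher and 6 lower, against 23.9% and 26.0% of all tested genes. Beside the cluster genes above, 6 genes listed as other imprinted genes rose. Whether they are imprinted in these cells was not measured. LRRTM1, a synaptic adhesion protein, was at 3.94, 3.51 and 3.49 CPM against 0.0379, 1.04 and 0.0727 CPM. It rose 9.46-fold, with a log2 difference of 3.38 ± 0.83 (edgeR adjusted p = 0.0275). LRRTM1 passed the filter only with the knockdown-labelled libraries, in which it was high. With no filter it was at 3.47 ± 0.83 (edgeR adjusted p = 0.0413). The second control-labelled library stood above the other 2. Without that library its log2 difference was 5.95 (edgeR adjusted p = 1.88e-06), whereas without any 1 knockdown-labelled library or the first control-labelled one the adjusted p was 0.0729 to 0.1.

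TP73, a transcription factor gene, rose 1.76-fold (log2 0.82 ± 0.14, edgeR adjusted p = 0.00878). TRAPPC9, a vesicle tethering subunit, rose 2.10-fold (1.06 ± 0.28, 0.0359 by edgeR), and ERLIN2, a lipid raft protein of the endoplasmic reticulum, rose 1.42-fold (0.51 ± 0.11, 0.0163 by edgeR). ZNF597, a zinc finger gene, and its neighbour NAA60, a protein acetyltransferase gene, rose 1.84-fold and 1.69-fold (edgeR adjusted p = 0.0441 and 0.0289). DIRAS3, a small GTPase that restrains growth, was the third gene that fell, at 0.429 ± 0.103 against 1.01 ± 0.225 CPM (log2 -1.21 ± 0.31, edgeR adjusted p = 0.0315). Each of these 6 calls was lost without any 1 knockdown-labelled library. All but that of TP73 were also lost without the first control-labelled one, and that of DIRAS3 without the third as well, with edgeR adjusted p of 0.0511 to 0.151 over these omissions. With composition and length trends removed NAA60 was not called, at 0.34 (edgeR adjusted p = 0.279), and TP73 was at 0.36 (0.0445). Among abundant imprinted genes, GNAS, the stimulatory G protein alpha subunit, was at 0.38 ± 0.17, the adaptor GRB10 at 0.12 ± 0.13 and the zinc finger regulator PLAGL1 at -0.07 ± 0.20, and none was called (edgeR adjusted p = 0.151, 0.521 and 0.825). GNAS was called higher in 6 of 18 alternative settings and was at -0.19 with composition and length trends removed.

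Of 23 genes tied to imprints or to DNA methylation, 17 were tested, of which 3 rose and 5 fell. Among all tested genes 9.29% were called higher and 14.7% lower. The list mixes opposite roles, such as those of DNMT1 and TET2 below, so these counts describe no shared function. DNMT1, the maintenance DNA methyltransferase, went from 270 ± 63.5 to 424 ± 14.7 CPM (log2 0.65 ± 0.19, edgeR adjusted p = 0.0493). CTCF, the insulator protein of the H19 and IGF2 control region, went from 77.4 ± 2.86 to 102 ± 5.47 CPM (log2 0.40 ± 0.11, edgeR adjusted p = 0.0371). EHMT1, a histone H3K9 methyltransferase, was at 0.60 ± 0.18 (edgeR adjusted p = 0.0473). All 3 calls were lost without any 1 knockdown-labelled library or the first control-labelled one, at edgeR adjusted p of 0.0822 to 0.165. With composition and length trends removed the calls of DNMT1 and EHMT1 were lost, at 0.32 and 0.30 (edgeR adjusted p = 0.0833 and 0.120).

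Among those that fell, ARID4A, a retinoblastoma-binding chromatin protein tied to imprinting at the Prader-Willi locus, was at 2.67, 3.38 and 2.90 CPM across the knockdown-labelled libraries and 24.5, 19.8 and 27.0 CPM in the control-labelled ones. It fell by 2.99 ± 0.19 on the log2 scale (edgeR adjusted p = 0.000283), and its groups were far apart. Its relative ARID4B fell by 1.38 ± 0.25 and the structural chromatin protein SMCHD1 by 1.35 ± 0.31 (edgeR adjusted p = 0.0106 and 0.0222). TET2, which oxidizes methylcytosine, fell by 0.90 ± 0.17, and HELLS, a remodeller needed for DNA methylation, by 0.81 ± 0.16 (edgeR adjusted p = 0.0119 and 0.0127). ARID4A was called lower in all 17 alternatives that tested it, and was at -1.88 with composition and length trends removed. With those trends removed the calls of ARID4B and SMCHD1 were lost, at -0.39 and -0.65 (edgeR adjusted p = 0.119 and 0.0632), and HELLS was at -0.46 (0.0279). The other 4 calls were lost without any 1 knockdown-labelled library, and all but that of TET2 without the first control-labelled one, at edgeR adjusted p of 0.0527 to 0.0987. The median of the 17 was 0.16. ZFP57, DPPA3, ZFP42 and EHMT2 were listed at 0 in every library. How reads in overlapping gene models were counted is not stated, so the 0 of EHMT2 in particular may not be its level.

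Of 25 genes whose products act with the members, all were tested, 2 rose and 3 fell, with a median of 0.08; these counts stand beside 9.29% of all tested genes called higher and 14.7% called lower. NOTCH1, a receptor that DLK1 is known to inhibit, rose 2.45-fold (log2 1.29 ± 0.37, edgeR adjusted p = 0.0448). SUZ12 and EED, subunits of the Polycomb complex that binds several of these noncoding RNAs, fell by 1.10 ± 0.22 and 0.71 ± 0.21 (edgeR adjusted p = 0.0146 and 0.0482). PLAG1, a zinc finger activator of IGF2 promoters, fell by 1.10 ± 0.17 (edgeR adjusted p = 0.00618). The calls of NOTCH1, SUZ12 and EED were lost without any 1 knockdown-labelled library or the first control-labelled one (edgeR adjusted p of 0.0603 to 0.164). With composition and length trends removed all 4 of the named calls ended: EED was at 0.06, SUZ12 at -0.44, PLAG1 at -0.59 and NOTCH1 at 0.81 (edgeR adjusted p = 0.892, 0.0928, 0.0743 and 0.0550). The receptors of IGF2, named here for their role after their values were seen, were not called: IGF1R, which signals, was at 0.77 ± 0.34 (edgeR adjusted p = 0.143), and IGF2R, which clears the ligand and is itself imprinted in mice, was at 0.49 ± 0.29 (edgeR adjusted p = 0.254). IGF1R was called higher without the second control-labelled library, at 0.45 (edgeR adjusted p = 0.00753), and IGF2R without the third, at 0.83.

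For each tested member, the genes with the most similar pattern over the 6 libraries were sought among 7696 tested genes that averaged 5 RPKM or more, by the root mean square difference of centred log2 CPM. The nearest to MEG3 were GOLGB1 at 0.45 and TPR at 0.46, whose log2 differences were -3.31 and -3.43; MEG3 itself spread by 1.69 on this scale. H19 was nearest to PDPR at 0.24 and MIR635 at 0.27, and IGF2 to CORO2B at 0.11 and TMEM132E at 0.12. PEG10 was nearest to EIF4G1 at 0.05 and HIPK2 at 0.08, and CDKN1C to PMVK at 0.04 and R3HCC1 at 0.05. The nearest to MEST were MIR196A1 at 0.13 and AC004967.7 at 0.15, and to KCNQ1OT1 they were SEPT3 at 0.12 and MIR647 at 0.13. These distances describe 6 libraries, in which the 2 groups also differ in depth.

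**Figure D5:**
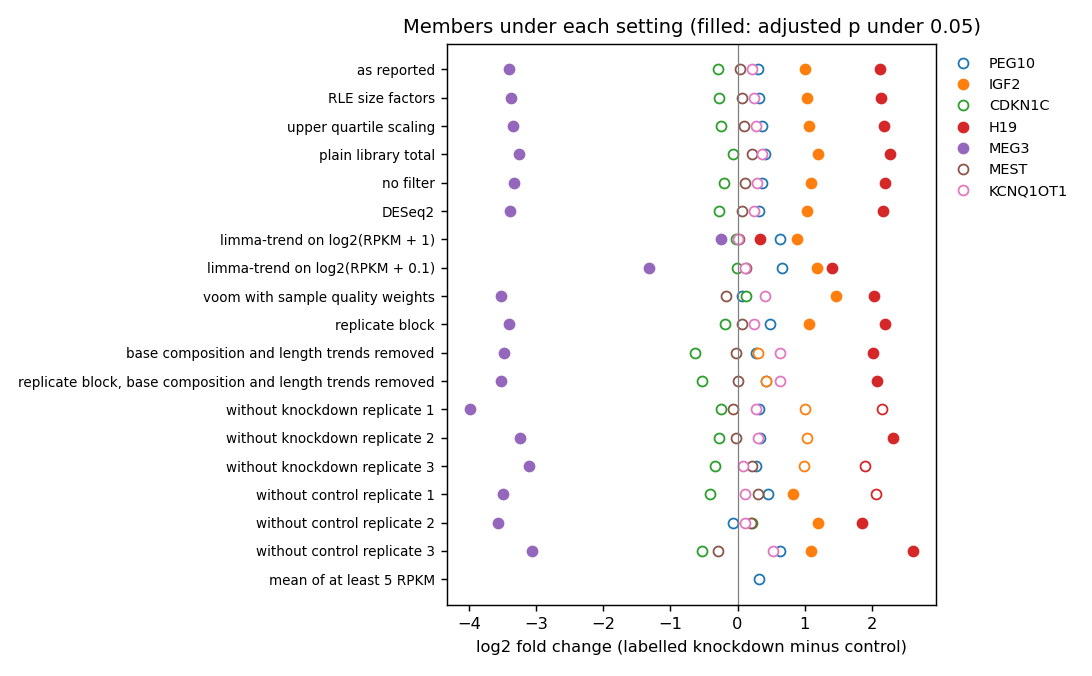
Log2 difference of each tested member under the reported fit and 18 alternative settings, with filled points at an adjusted p under 0.05. MEG3 was filled wherever it was tested, H19 was open in 3 settings and IGF2 in 5, and only PEG10 had the level to be tested where the mean had to reach 5 RPKM.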

How the data were processed

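RNA from 6 HEK293 libraries was depleted of ribosomal RNA, treated with an RNA bisulfite kit and made into stranded libraries, per the labels' protocols; the sources used here do not state whether the table came from treated libraries. For each gene the authors deposited a raw read count, not normalized, and an RPKM value that they computed from it; recomputed RPKM, used here at full precision, differed from the deposited ones by at most 0.005. The build hg19 and the tools edgeR 3.4.6, DESeq 1.18.0, DESeq2 1.6.3, HTSeq 0.6.1, StringTie 1 and bcl2fastq 2.17.1.14 appear, per the submitters' processing notes, with no role stated.

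The test was that of edgeR 4.0.16 run under R 4.3.3 (TMM, filterByExpr, robust quasi-likelihood F test, no block), with Benjamini-Hochberg adjustment over 17805 genes and a threshold of 0.05. CPM are scaled by TMM; fold changes are ratios of mean CPM, and log2 differences are fitted, ± SE. Ratios were tested by exact permutation (SciPy 1.17.1). Interval and floor values cover counting error only. Gene classes, neighbours, exon overlaps and base composition came from GENCODE 29, matched for 97.2% of tested genes; its build is not that of the files, so it gave no coordinates. Start regions and microRNAs came from RefSeq. Columns were tied to samples by the second name in each description.

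The members and lists were chosen with earlier results of these data known. Named were all members, fixed direct neighbours, the called imprinted genes (at most 12) and the 2 nearest patterns per member. The rule also named called genes tied to imprints or DNA methylation, and called partner genes. A gene that this rule names is not reported here. Alternatives were other scalings, filters, DESeq2 1.42.0, limma 3.58.1 (trend and voom), a replicate block, removal of composition and length trends (mgcv 1.9.3), other pseudocounts and each library left out.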

Additional observations from a re-analysis of the deposited data

How the results depend on the processing

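MEG3 was called lower in all 17 alternatives that tested it, H19 higher in 14 and IGF2 in 12. The members called higher were 0 with a mean of at least 5 RPKM, where PEG10 alone was tested, 1 with composition and length trends removed, 1 with those trends and the replicate block, and 0 to 2 with single libraries left out, at 0 without knockdown-labelled library 1 or 3. The members called lower were 0 with a mean of at least 5 RPKM.

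Other imprinted genes called higher, 9 as reported, were 3 with that filter, 14 with DESeq2, 15 with limma on log2(RPKM + 1), 23 with voom, 5 with the replicate block, 4 with block and trends removed, and 1 to 22 with single libraries left out. Those called lower, 3 as reported, were 1 with the filter, 6 with DESeq2, 11 with voom and 1 to 12 with single libraries left out, in both cases most without the second library labelled control. The cause was not tested.

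Over all genes, 1654 were called higher and 2613 lower as reported, against 4923 and 5291 with voom, 762 and 1054 with block and trends removed, and 305 to 4279 and 886 to 4784 with single libraries left out. Plain library totals gave 1888 and 1649, with the median of all genes at 0.13 instead of -0.04; limma on log2(RPKM + 1) gave 2299 and 1527, and with a pseudocount of 0.1 it gave 2021 and 1530. No member's sign turned under these scalings.

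The H19 to IGF2 ratio difference, 0.23, was -0.54 with a pseudocount of 1 RPKM and -0.04 to 0.45 with single libraries left out. That of KCNQ1OT1 to CDKN1C was -0.24 to 0.33. Among uncalled members, MEST was at -0.17 with voom, -0.02 with trends removed and -0.29 to 0.30 with single libraries left out, CDKN1C at 0.13 with voom and -0.53 to 0.22, and PEG10 at -0.07 to 0.63. Among other named genes, plain library totals gave PHLDA2 0.02, NAP1L4 0.06, UBE3A 0.05 and PLAGL1 0.08, against negative values as reported; limma gave 0.05, 0.06, 0.10 and 0.11 with a pseudocount of 1 and 0.06, 0.06, 0.11 and 0.14 with 0.1. With trends removed, and with the replicate block as well, SGCE was at 0.80 and 0.84, UBE3A at 0.16 and 0.18, GRB10 at -0.16 and -0.13, GNAS at -0.19 and -0.10 and EED at 0.06 and 0.13. Voom gave NAP1L4 0.03 and PLAGL1 0.01, and no filter gave PLAGL1 0.00. Single libraries left out gave PHLDA2 -0.24 to 0.04, NAP1L4 -0.28 to 0.09, UBE3A -0.27 to 0.04 and PLAGL1 -0.20 to 0.16. Of these, only EED was called as reported.

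Replicate numbers did not pair the libraries: deviations of same-numbered libraries correlated at -0.0397, 0.0571 and 0.00102. With the replicate block, 2 members were called higher and 1 lower, and 1105 and 1871 of all genes. The replicate-block ratio test cannot give a p below 0.25. The filter on low counts left PEG3, DLK1 and NDN untested.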
